A study of Mus musculus with 2 samples.

Results

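Immediate early genes are transcribed within minutes of a stimulus from factors that the cell already holds. The 10 members described here were Npas4, Fos, Fosb, Jun, Junb, Egr1, Nr4a1, Ier2, Zfp36 and Dusp1, chosen by name as the rows of both count matrices that carry one of these symbols. They are 10 of 31053 genes, and each symbol was found once. Npas4, a transcription factor induced by membrane depolarisation and calcium entry, was kept apart from the other 9. Those 9 also answer growth factors, stress and the enzymatic separation of tissue into single cells. The cells were from pancreatic islets of female wild-type C57BL/6J mice. One library came from multipara mice, which went through 3 consecutive pregnancies from 9 weeks of age and were taken 3 weeks after the last delivery, and the other from age-matched virgin mice. Both sets of islets were held for 30 minutes at 37 °C in medium with serum and then dissociated with 0.25% trypsin, so every level below is that of cells after this handling. How many mice each library pools is not given in the labels.

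In beta cells, glucose closes ATP-sensitive potassium channels, the membrane depolarises, and calcium enters and activates calcium-dependent kinases and CREB, a factor that binds the cyclic AMP response element (CRE). Npas4 is a known target of this chain in beta cells as in neurons. Fos, Fosb, Jun and Junb encode the subunits of AP-1, which joins a Fos protein to a Jun protein. Egr1 and Nr4a1 encode a zinc finger factor and an orphan nuclear receptor. Ier2 encodes a nuclear protein of the early response, Zfp36 encodes tristetraprolin, which promotes decay of short-lived mRNAs, and Dusp1 encodes a phosphatase that switches off MAP kinases.

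There was 1 library per group, so no difference between virgin and multipara could be set against a spread between animals. Group, library and dissociation run cannot be told apart, and no p-value is given. Levels are CPM, the UMIs (individually tagged mRNA molecules) of a gene per 1000000 UMIs of all cells of a class. Intervals are exact 95% intervals that cover counting error only. Depth was 94853806 UMIs for virgin (5463 barcodes, 4330 of them kept) and 82503776 UMIs for multipara (5075 barcodes, 3330 kept). The libraries shared 7 barcodes, 3 of them among the kept cells. Cells were placed in classes by the share of UMIs from hormone genes or by UMIs of marker genes. This gave 1763 virgin and 1540 multipara beta-like cells, 1072 and 671 alpha-like cells, 368 and 317 delta-like cells, and 73 and 84 cells high in Ppy. It also gave 258 and 207 endothelial-like, 59 and 61 pericyte-like, 85 and 106 macrophage-like, 121 and 41 T cell-like and 176 and 40 B cell-like cells. Markers outside the gate were highest in their own class for 5 of 5 beta, 3 of 3 delta and 4 of 4 endothelial markers in both libraries, as for 4 of 4 macrophage, 3 of 3 T cell and 2 of 3 pericyte and B cell markers. For the alpha-like cells this held for 4 of 4 markers in virgin and 2 of 4 in multipara. Of 3 markers for pancreatic polypeptide cells, Folr1 alone was highest there and Aqp3 was listed at 0, so these cells are called Ppy-high. Ins2 mRNA, a gauge of free RNA in the droplets, lay at 0.692% to 2.73% of its beta-like level in the other classes of the virgin library and at 1.17% to 6.28% in multipara.

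Sequence before the transcription start is shown for 5 members, chosen to show motifs that CREB or serum response factor can bind. RefSeq gave 250 bases upstream of the start (build GRCm38.p6) for 8 of the 10 members. The windows were searched on both strands for the full CRE (TGACGTCA), its core (TGACG), the AP-1 site (TGANTCA), the CArG box and the TATA box (TATAAA). A full CRE also counts as cores, and matches may overlap. The core was present in 6 of the 8 members, against 17.8% of all 32851 windows of this length. Npas4 held 2 cores 10 bases apart, Nr4a1 held 4, Fos held 2, Fosb and Junb held 1 each, and Dusp1 held 3, of which 2 form the only full CRE among these members (1.55% of all windows hold one). Zfp36 held no core but a CArG box, present in 1.47% of all windows. The AP-1 site was in none of the 8 (6.75% of all windows) and the TATA box in Fos alone (12.4%). None of these 5 motifs was found for Jun. A match is a description of the letters, not of binding. Stretches below run 5′ to 3′ on the strand of the gene, with CRE cores and the CArG box in capitals. Annotated exons were left out, except that 30 bases are shown for Npas4 (chr19:4990129-4990158, minus strand) and Zfp36 (chr7:28379267-28379296, minus strand), whose windows lie within a longer annotated first exon. The other stretches are chr12:85473640-85473889 on the plus strand for Fos, chr15:101266596-101266845 on the plus strand for Nr4a1 and chr17:26508520-26508722 on the minus strand for Dusp1.
Npas4: ccgttcgaCGTCAcgggaTGACGtcggaag
Zfp36: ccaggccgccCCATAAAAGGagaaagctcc
Fos: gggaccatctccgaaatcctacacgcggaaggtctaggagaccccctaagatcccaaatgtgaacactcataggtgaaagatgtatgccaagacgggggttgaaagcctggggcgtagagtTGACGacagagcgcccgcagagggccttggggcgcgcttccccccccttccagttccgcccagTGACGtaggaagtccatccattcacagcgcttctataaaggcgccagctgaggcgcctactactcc
Nr4a1: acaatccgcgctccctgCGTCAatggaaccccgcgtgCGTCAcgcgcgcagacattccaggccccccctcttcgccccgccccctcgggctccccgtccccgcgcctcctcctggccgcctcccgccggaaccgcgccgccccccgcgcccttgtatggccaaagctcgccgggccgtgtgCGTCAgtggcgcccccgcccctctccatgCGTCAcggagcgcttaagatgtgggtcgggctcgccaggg
Dusp1: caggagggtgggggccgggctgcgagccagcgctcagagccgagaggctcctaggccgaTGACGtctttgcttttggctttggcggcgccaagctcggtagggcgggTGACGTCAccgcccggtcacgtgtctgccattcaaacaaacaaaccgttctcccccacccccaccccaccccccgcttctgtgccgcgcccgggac

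**Figure D1:**
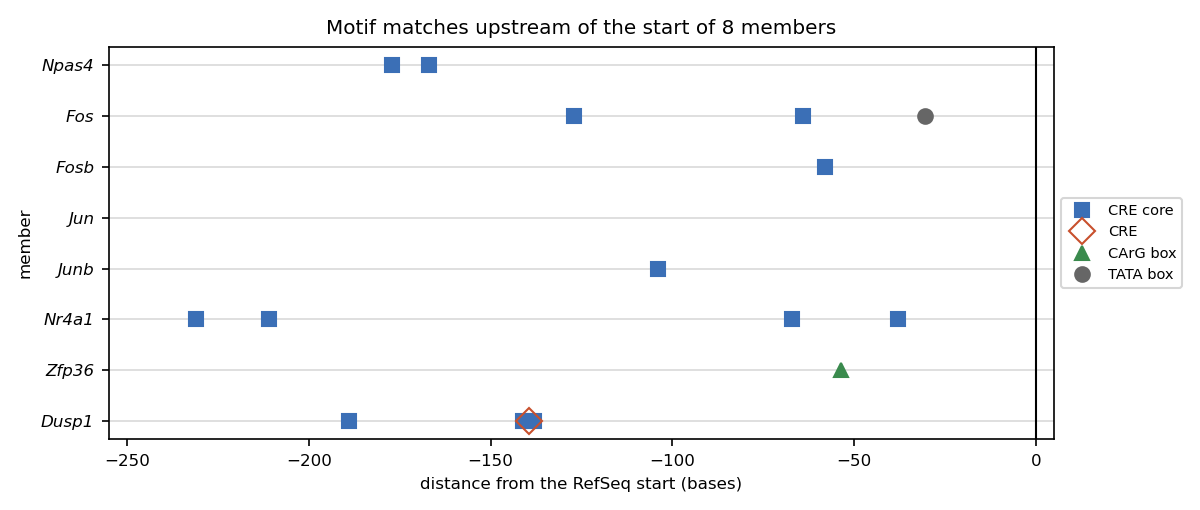
Motif matches in the 250 bases before the RefSeq start of 8 members, by distance from the start in bases; each symbol is 1 match at its centre. The 2 CRE cores of Npas4 lie between positions -179 and -165, and Jun has no match.

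Npas4 was an endocrine transcript in both libraries. Beta-like cells held 59.1 CPM (57.0 to 61.2) in the virgin library, against 90.2 CPM (87.5 to 93.0) in the multipara library. Alpha-like cells held 72.6 CPM (68.6 to 76.8) and 62.3 CPM (57.8 to 67.0). Delta-like cells held 41.4 CPM (35.2 to 48.3) and 69.8 CPM (61.0 to 79.7). These 3 classes together with the Ppy-high cells, at 30.1 and 54.0 CPM, stood above every non-endocrine class in each library, although the virgin intervals of Ppy-high and pericyte-like cells overlapped. Fibroblast-like cells, left out of the classes compared, held 2 Npas4 UMIs in 46 virgin cells and 0 in 5 multipara cells (0 to 183 CPM). In the other non-endocrine classes Npas4 rested on 1 to 7 UMIs per class, with levels of 0.836 to 14.2 CPM. Endothelial-like cells, for example, held 7 Npas4 UMIs in 258 virgin cells and 6 in 207 multipara cells. That is 8.94% and 4.99% of the beta-like level, while Ins2 lay there at 1.79% and 3.53% of its own. A background of free RNA could not be told from low expression at these counts. After each cell was thinned to 1500 UMIs, so that depth no longer differed, 8.07% of beta-like cells had a Npas4 UMI in the virgin library and 11.9% in the multipara library. The same measure gave 10.0% and 8.73% in alpha-like cells, 6.13% and 11.0% in delta-like cells, and 1 of 235 virgin endothelial-like cells. It gave 2 of 72 virgin and 3 of 82 multipara Ppy-high cells. Pericyte-like cells gave 1 of 57 and 3 of 61, with intervals that overlapped those of Ppy-high cells in both libraries.

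The order of the endocrine classes for Npas4 was not the same in the 2 libraries. In virgin, alpha-like cells were highest, then beta-like cells, then delta-like and Ppy-high cells, whose intervals overlapped. In multipara, beta-like cells came first, and delta-like, alpha-like and Ppy-high cells followed with overlapping intervals between neighbours. Genes with the pattern most like Npas4 over the 18 points (9 classes in 2 libraries, log2 of CPM plus 1, 11257 genes) were Pcsk2, Peg3, Chga, Pcsk1n and Scg3, with Pearson's r of 0.94 to 0.95. Pcsk2 encodes a prohormone convertase, and Chga, Pcsk1n and Scg3 encode proteins of secretory granules. Points of 1 library share its handling and depth, so this r is a description.

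The other 9 members were present in every class, and their levels were highest outside the endocrine cells. The order given here leaves out fibroblast-like cells, of which there were 46 in virgin and 5 in multipara. The virgin ones held Egr1 at 3800 CPM (3591 to 4017), above every other class, and Fosb at 2213 CPM, against 2156 CPM in pericyte-like cells. Fos was highest in pericyte-like cells, at 4695 CPM in virgin and 6286 CPM in multipara. In beta-like cells Fos was at 1441 and 1345 CPM. Egr1, Nr4a1 and Ier2 were highest in endothelial-like cells of both libraries (in multipara with intervals overlapping those of delta-like cells for Egr1 and of pericyte-like cells for Nr4a1), Fosb, Jun and Junb in pericyte-like cells, and Zfp36 in macrophage-like cells. Dusp1 was highest in endothelial-like cells in virgin and in pericyte-like cells in multipara, with overlapping intervals in the latter. Among the hormone-gated cells, delta-like cells were highest for all of Fos, Fosb, Jun, Junb, Egr1, Ier2 and Dusp1 in both libraries. Fos in delta-like cells, at 2703 and 3684 CPM, was 188% and 274% of its beta-like level, far above the 1.37% and 2.55% found there for Ins2. T cell-like and B cell-like cells were the lowest classes in both libraries for Fos, Fosb, Jun and Egr1, with Fos at 120 CPM and 160 CPM in B cell-like cells. For Ier2 and Dusp1, B cell-like cells alone were lowest. Junb and Nr4a1 were lowest in Ppy-high cells, and Junb was at 3009 and 2205 CPM in T cell-like cells. Zfp36 was lower in beta-like cells than in any other hormone-gated class, at 67.1 and 101 CPM against 275 and 294 CPM in alpha-like cells.

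**Figure D2:**
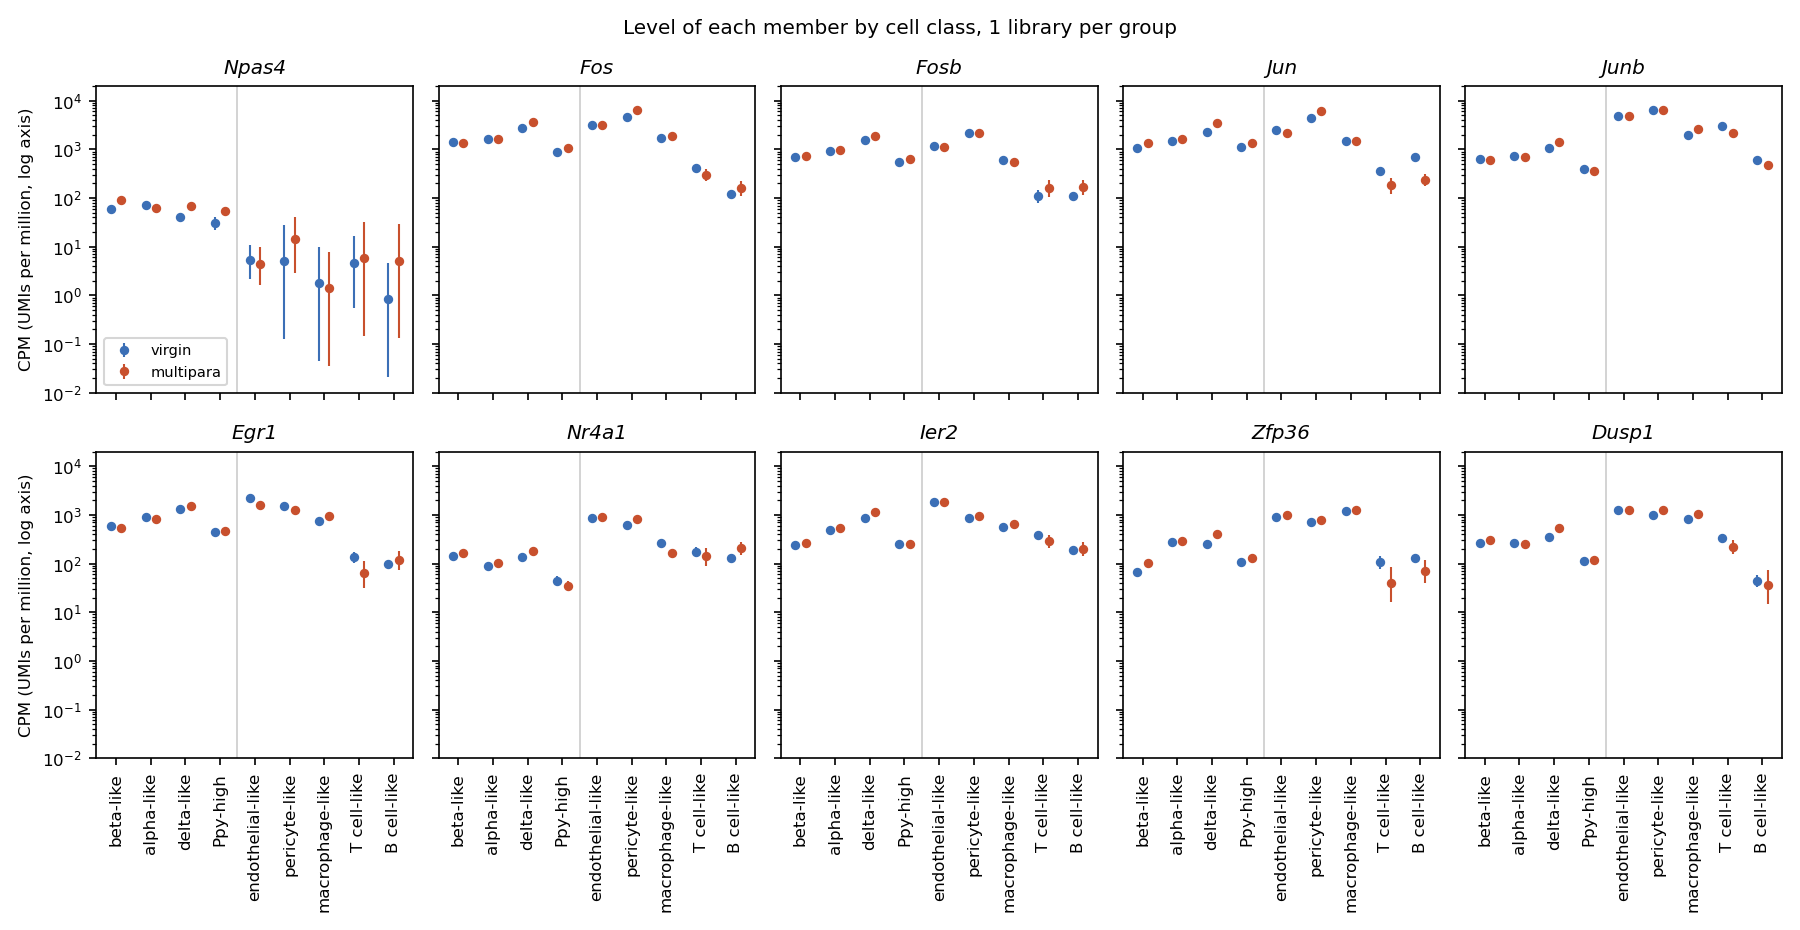
Level of each member in CPM (log axis) in 9 cell classes, with virgin in blue and multipara in orange; bars are exact Poisson 95% intervals, which cover counting error only. The grey line divides hormone-gated from other classes. Npas4 drops from at least 30.1 CPM on its left to at most 14.2 CPM on its right, whereas the other members do not.

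Fos, Fosb, Jun and Egr1 went together across the classes. Pearson's r of Fos over the 18 points was 0.95 with Fosb, 0.94 with Egr1 and 0.90 with Jun. Fos was less close to Junb, at 0.52, and to Nr4a1, at 0.46, while Junb and Nr4a1 gave 0.85 with each other. Npas4 followed none of them, with r from -0.50 (Junb) to 0.44 (Fosb). The genes most like Fos were Btg2, an antiproliferative early response gene, then Fosb, Anxa5, Stard13 and Kctd11, with r of 0.94 to 0.96.

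Between the libraries, Npas4 and Zfp36 differed most in beta-like cells. Npas4 counted 3010 UMIs in virgin and 4166 in multipara, a log2 ratio of multipara over virgin of 0.61 (0.54 to 0.68). Zfp36 went from 67.1 to 101 CPM on 3418 and 4667 UMIs, a log2 ratio of 0.59 (0.53 to 0.66). These were the 2 of 10 members at least 1.5-fold higher in multipara (a log2 ratio of 0.58), where 4.04% of the 13901 genes with at least 10 UMIs were past that fold. Of the 1238 genes that averaged 50 CPM or more, 0.889% were past it. Both lay close to that line: of 10 other ways of processing, Zfp36 was under it in 4, down to 0.45 in thinned cells, and Npas4 in 1, at 0.58 with no cell filter. No member was 1.5-fold lower, against 10.2% of all genes and 0.969% of those that averaged 50 CPM or more.

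Jun, the AP-1 subunit, came next, at 1066 CPM in virgin and 1365 CPM in multipara, a log2 ratio of 0.36 (0.34 to 0.37). Nr4a1 was at 141 and 165 CPM, with a log2 ratio of 0.23 (0.18 to 0.28). Dusp1 was at 259 and 303 CPM (0.22, 0.19 to 0.26), and Ier2 at 237 and 270 CPM (0.19, 0.15 to 0.22). Fosb was nearly level, at 680 and 714 CPM (0.070, 0.048 to 0.092). The remaining 3 were lower in multipara. Fos had a log2 ratio of -0.10 (-0.11 to -0.084), Egr1, at 591 and 547 CPM, of -0.11 (-0.14 to -0.088), and Junb, at 632 and 606 CPM, of -0.059 (-0.082 to -0.035). Junb turned to 0.040, and Fos and Egr1 moved to -0.00028 and -0.013, under TMM scaling, which moved the median of all genes from -0.10 to -0.0028. Of the 9 members other than Npas4, 6 had intervals above 0 and 3 below. The ratio was above 0 for 32.2% of all genes and for 40.9% of those that averaged 50 CPM or more. The median log2 ratio of the 9 members was 0.19, against -0.10 over all genes. AP-1 subunits thus differed among themselves, with Jun furthest above the other 3, while the lower levels of Fos and Junb did not hold under TMM scaling.

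The Npas4 difference was present at each depth and each mitochondrial share. In beta-like cells under 20000 UMIs the log2 ratio was 0.85 (0.57 to 1.13) on 344 virgin and 341 multipara cells. It was 0.67 (0.59 to 0.76) at 20000 to 40000 UMIs and 0.50 (0.37 to 0.64) at 40000 or more. By mitochondrial share it was 0.81 under 3%, 0.50 from 3% to 5% and 0.64 from 5% to 10%. Zfp36 stayed between 0.45 and 0.66 over these 6 strata and Jun between 0.30 and 0.41. Dusp1 was at 0.44 under 3% and at 0.052 (-0.0088 to 0.11) from 5% to 10%. Junb ran from -0.18 to 0.067.

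**Figure D3:**
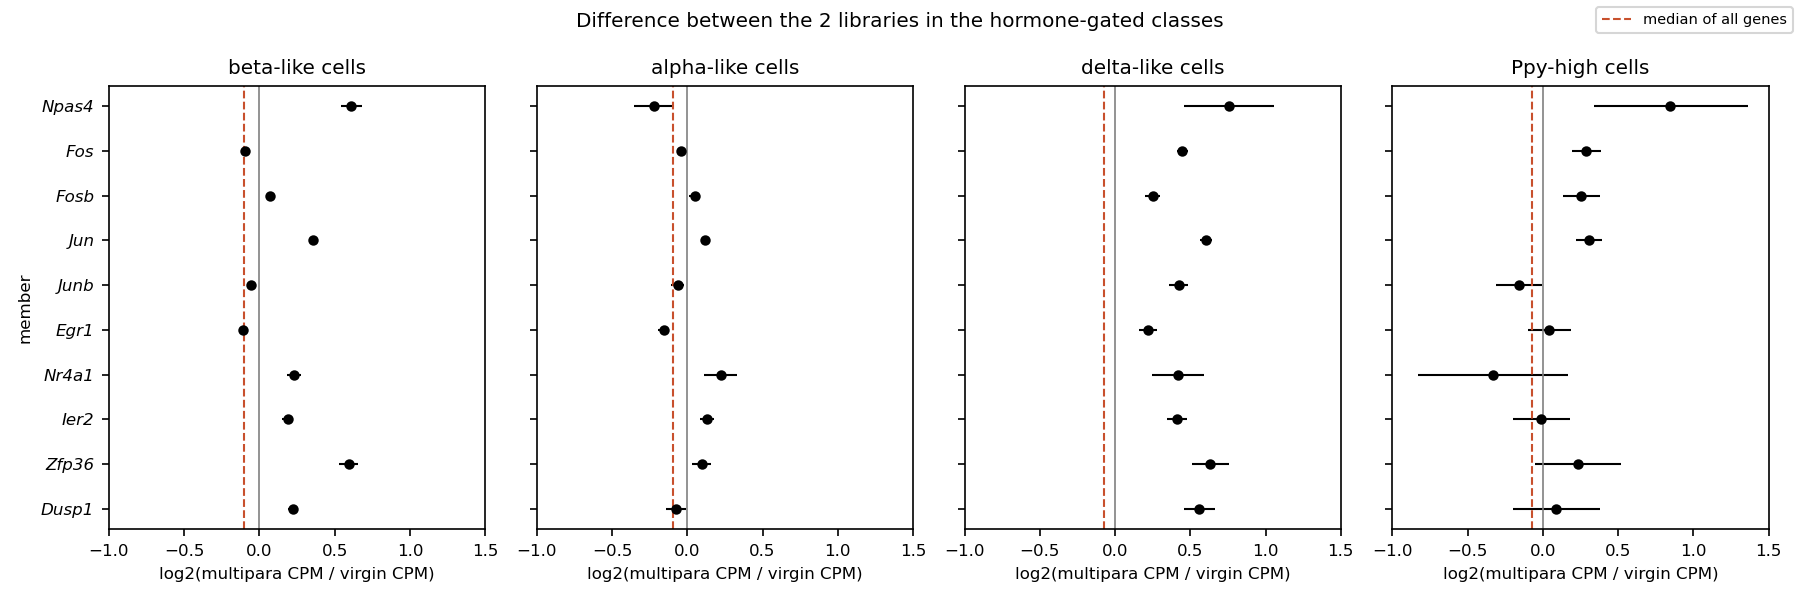
Log2 ratio of CPM, multipara over virgin, for each member in the 4 hormone-gated classes; bars are exact 95% intervals for counting error only and the dashed line is the median of all genes of that class. Npas4 lies at 0.61 in beta-like and -0.22 in alpha-like cells, and all 10 members lie above 0 in delta-like cells.

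Delta-like cells, which secrete somatostatin, were the class where every member was higher in multipara. Npas4 had 159 virgin and 222 multipara UMIs, a log2 ratio of 0.76 (0.46 to 1.06). Zfp36 was at 258 and 401 CPM (0.63, 0.51 to 0.75), Jun at 2280 and 3471 CPM (0.61, 0.57 to 0.65) and Dusp1 at 358 and 527 CPM (0.56, 0.46 to 0.66). These 4 were the furthest apart. Fos followed at 0.45 (0.41 to 0.48), Junb at 0.42 (0.36 to 0.48), Nr4a1 at 0.42 (0.25 to 0.59) and Ier2 at 0.41 (0.34 to 0.48). Fosb at 0.25 (0.12, -0.021 to 0.26, in cells thinned to 1500 UMIs) and Egr1 at 0.22 were the lowest. Egr1 was at 0.14 (-0.0058 to 0.29) in the same thinned cells. The 9 other than Npas4 had a median log2 ratio of 0.42 against -0.072 over all genes, and the ratio was above 0 for 39.3% of the 11957 genes measured in these cells. Npas4, Zfp36 and Jun were at least 1.5-fold higher, as were 4.98% of all genes. Jun lay close to that line of 0.585, at 0.583 with no cell filter. It was at 0.580 in cells thinned to 3500 UMIs and 0.70 in cells thinned to 1500. Median depth was 10225 UMIs per cell in virgin and 10354 in multipara, and median mitochondrial share 3.96% and 3.76%. Acinar markers, from 4 genes, summed to 2.86 CPM in virgin and 11.3 CPM in multipara, and their part in the result was not tested.

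Alpha-like cells, which secrete glucagon, went the other way for Npas4 at full depth. Its log2 ratio there was -0.22 (-0.36 to -0.088) on 1238 virgin and 724 multipara UMIs. In cells thinned to 3500 UMIs it was -0.19, with an interval that held 0 (-0.48 to 0.10). A Npas4 UMI was then seen in 19.2% of virgin and 18.9% of multipara cells. None of the 10 members passed 1.5-fold in either direction, where 3.83% of 12992 genes were that much higher and 8.21% that much lower. Of the 1641 genes that averaged 50 CPM or more, 0.609% were that much higher and 0.548% that much lower. Nr4a1 at 0.22 (0.11 to 0.33) was the highest of the other 9, followed by Ier2 at 0.13, Jun at 0.12 and Zfp36 at 0.095. Egr1 was the lowest at -0.16 (-0.19 to -0.12). The median of the 9 was 0.048 against -0.096 over all genes of the class, with 5 intervals above 0 and 4 below, and 33.1% of all genes had a ratio above 0. Fos, Fosb, Junb and Dusp1 lay near 0 and turned sign under another scaling, under equal weight per cell or in thinned cells. The 2 erythroid markers summed to 1.23 CPM in virgin and 429 CPM in multipara alpha-like cells, and their part in these ratios was not tested. In Ppy-high cells Npas4 counted 49 and 106 UMIs, a log2 ratio of 0.84 (0.34 to 1.36). In cells thinned to 3500 UMIs that ratio was 0.43 (-0.80 to 1.73) on 10 and 16 UMIs, and a Npas4 UMI was seen in 14.7% and 16.0% of cells. Jun, Fos and Fosb were also higher, at 0.31, 0.29 and 0.26, but with gate thresholds doubled Jun was at 0.052 and Fosb at 0.068. Junb was lower at -0.16 (0.12, -0.44 to 0.69, in cells thinned to 1500 UMIs), and the intervals of the other 5 held 0. The ratio was above 0 for 42.7% of all genes of these cells.

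Outside the endocrine classes the members followed no common direction. Thinned values there are from cells thinned to 1500 UMIs, which leaves fewer UMIs of a member and wider intervals than full depth. In endothelial-like cells Egr1 was lower in multipara, from 2214 to 1627 CPM (-0.44, -0.52 to -0.36). Jun was at -0.16 there, Zfp36 at 0.13 (-0.072 in thinned cells), and the other 6 had intervals that held 0, with 42.6% of all genes above 0. In thinned endothelial-like cells Fos (-0.23, -0.36 to -0.096) and Fosb (-0.26, -0.47 to -0.053) were also below 0. At that depth Egr1 was at -0.67 and Jun at -0.38, while the intervals of Junb, Nr4a1, Ier2, Zfp36 and Dusp1 held 0. Haemoglobin Hbb-bs, a red cell transcript, was at 23.4 CPM in virgin and 4526 CPM in multipara endothelial-like cells, and its part was not tested. Pericyte-like cells were higher in multipara for Jun (0.48), Fos (0.42), Nr4a1 (0.38) and Dusp1 (0.37) and lower for Egr1 (-0.33), with 45.8% of all genes above 0. In thinned cells Nr4a1 was at 0.0075 (-0.50 to 0.51) and Dusp1 at 0.15 (-0.25 to 0.56). Macrophage-like cells were higher for 5 of the 9, led by Junb at 0.36, and lower for Nr4a1 at -0.69, where 36.5% of all genes were above 0. The median over all genes of the class moved from -0.19 to 0.0082 under TMM scaling, and in thinned cells Nr4a1 turned to 0.041 (-0.74 to 0.84) and Ier2, at 0.23, to -0.082 (-0.56 to 0.41), while Junb was at 0.13 (-0.11 to 0.37). In T cell-like cells 5 of the 9 had intervals below 0 and none above, with Jun at 357 and 181 CPM (-0.98), while 51.8% of all genes were above 0. Under a 5% mitochondrial limit Jun was at -0.056 and Egr1, at -1.09 without it, was at -0.48. In thinned T cell-like cells Egr1 was at -0.50 (-2.07 to 0.82) on 25 and 6 UMIs. Zfp36, at -1.39 in full, was at -0.76 (-3.19 to 1.06) on 15 and 3 UMIs. Thinned values were -0.72 (-1.70 to 0.16) for Jun and -0.89 (-1.96 to 0.055) for Dusp1. Of the 5, the interval of Junb alone, at -0.27 (-0.52 to -0.021), stayed below 0. Jun was also lower in B cell-like cells, at 699 and 237 CPM on 836 and 46 UMIs (-1.56), but this was -0.19 (-0.91 to 0.46) in thinned cells and -0.33 with each cell weighted equally. Zfp36 was lower there at -0.86 (-1.54 on 51 and 4 UMIs in thinned cells) and Nr4a1 higher at 0.64 (0.25 in thinned cells, 0.13 with equal weight), where 37.5% of all genes were above 0. A Jun UMI was nevertheless seen in 81 of 176 virgin and 22 of 40 multipara B cell-like cells, 46.0% and 55.0%, and 1 virgin cell held 71 of the 836 UMIs.

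At full depth 60.5% of the virgin beta-like cells had a Npas4 UMI, and 66.9% of those in multipara. When beta-like cells were thinned to 3500 UMIs, 1663 virgin and 1388 multipara cells remained and 100 and 152 shallower cells were left out. A Npas4 UMI was then seen in 16.9% (15.1 to 18.8) of the virgin cells, against 23.9% (21.7 to 26.3) in multipara. A thinned cell without a Npas4 UMI may still express it. Zfp36 was seen in like shares, 18.5% (16.7 to 20.5) and 23.3% (21.1 to 25.6) of thinned cells. Fos was seen in nearly all thinned cells, 96.6% in virgin and 93.5% in multipara, and Egr1 in 81.0% and 77.0%. Jun was seen in 92.5% and 93.6%, and its mean per thinned cell was 3.65 UMIs in virgin and 4.82 in multipara.

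The summed UMIs of the 9 members spread more widely in multipara than in virgin beta-like cells. Their median per thinned cell was 17 in virgin and 18 in multipara, with the 10th percentile at 8 and 6 and the 90th at 29 and 33. None of the 9 was seen in 5 virgin and 11 multipara cells. In delta-like cells at the same depth the median was 35 in virgin and 48 in multipara, and in alpha-like cells 23 and 24. Beta-like cells with a Npas4 UMI held more of the other 9, 20.4 UMIs against 17.4 in cells without one in virgin and 22.4 against 18.1 in multipara. Each of the 9 was higher in the cells with Npas4 in both libraries, from 1.09-fold for Jun to 1.56-fold for Nr4a1 in virgin. The share of all genes that were also higher in those cells was not measured, so this is not a trait of the members. Across beta-like cells Pearson's r of Fos with Jun was 0.31 in virgin and 0.51 in multipara, while r of Npas4 with the others had a median of 0.088 and 0.11. Such r values in sparse counts are descriptions.

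**Figure D4:**
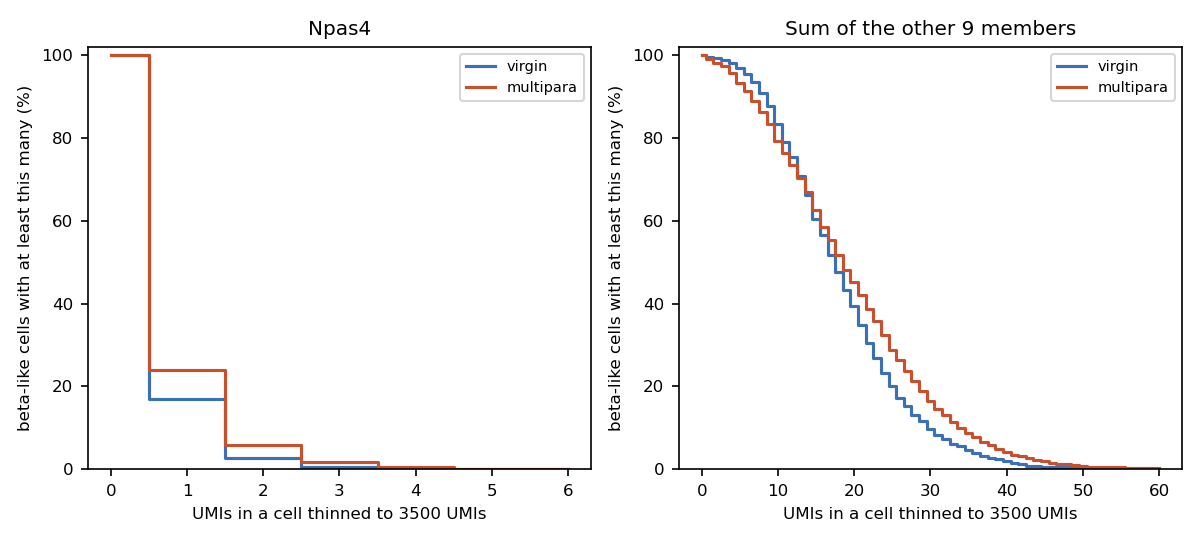
Share of beta-like cells (percent) with at least a given number of UMIs after thinning each cell to 3500 UMIs, for Npas4 and for the sum of the other 9 members; virgin in blue, multipara in orange. The Npas4 curve starts at 16.9% and 23.9% at 1 UMI, and the curves of the sum cross, with medians of 17 and 18.

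The wider pathway was read from 5 lists of 20 genes in beta-like cells, beside all genes of the class, of which 4.04% were at least 1.5-fold higher in multipara and 10.2% that much lower, with a median log2 ratio of -0.10. Among calcium and cyclic AMP response genes, 2 of 20 were at least 1.5-fold higher in multipara and 1 was that much lower. Nptx2, which encodes the activity-regulated protein neuronal pentraxin 2, was at 0.844 and 2.08 CPM on 43 and 96 UMIs, a log2 ratio of 1.30 (0.77 to 1.86). Egr3, a zinc finger factor of the Egr family, was at 3.98 and 7.65 CPM (0.94, 0.69 to 1.20). Gadd45b, a stress sensor that binds MAP kinase kinases, was lower, at 39.2 and 24.4 CPM (-0.68, -0.79 to -0.58). The median of the list was 0.25. The other AP-1 and immediate early factors had a median of -0.090, with 19 of 20 measured, none past the fold upward and Myc below it at -0.75 (-1.22 to -0.29) on 113 and 61 UMIs.

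Feedback regulators, which shut early gene responses down, had a median of -0.044. Of these 20, none was 1.5-fold higher and 2 were that much lower, a share close to the 10.2% of all genes. They were Dusp2 (17 and 5 UMIs) and Zfp36l1 (27 and 14 UMIs), at -1.62 (-3.42 to -0.13) and -0.81 (-1.85 to 0.18). The interval of Zfp36l1, a paralogue of Zfp36, held 0. In the list of other dissociation response genes, mainly heat shock genes, no gene of 20 passed the fold in either direction and the median was 0.12. Intervals lay above 0 for 11 of them and below 0 for 2, where the ratio was above 0 for 32.2% of all genes. Hspa1a (0.53, 0.49 to 0.56), Dnajb1 (0.48) and Hspa1b (0.46) were the highest. Upstream kinases and factors had a median of -0.21, against -0.10 over all genes. Of these 20, 1 was past the fold downward, where 10.2% of all genes were, and none upward. It was Camk4, a calcium-dependent kinase that acts on CREB, at -0.88 (-1.58 to -0.22) on 59 and 29 UMIs.

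**Figure D5:**
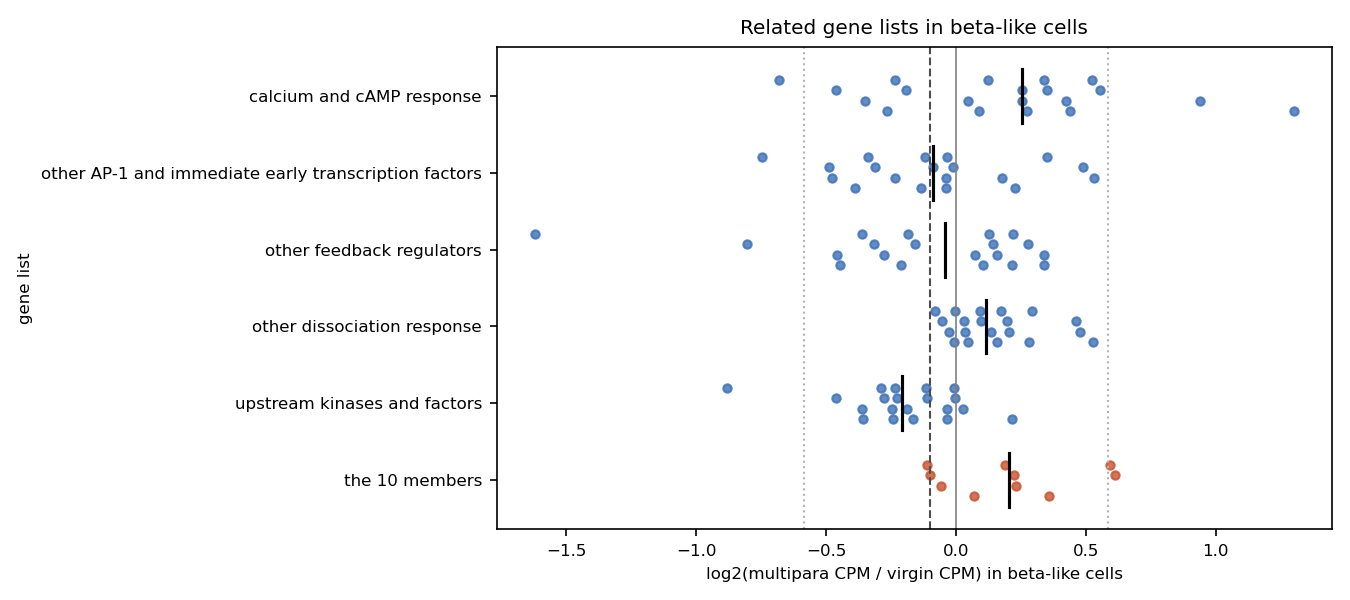
Log2 ratio of CPM, multipara over virgin, in beta-like cells for each gene of 5 related lists (blue) and for the 10 members (orange); black bars are medians, the dashed line is the median of all genes and dotted lines mark 1.5-fold. The list medians run from -0.21 to 0.25.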

How the data were processed

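UMI counts per gene and barcode were deposited by the authors, who made them with Cell Ranger 3.1.0, with Seurat 3.0 and the builds GRCm38 and mm10 also named in the submitters' processing notes. The filter of the study was applied (over 200 and under 6000 genes, under 60000 UMIs, mitochondrial share under 10%), and doublets called by Scrublet (scanpy 1.11.5) were removed (61 of 4391 virgin and 44 of 3374 multipara cells). Classes were gated at 15% of UMIs from Ins1 and Ins2, 5% from Gcg, 3% from Sst or 15% from Ppy, and otherwise at 5 UMIs of at least 2 marker genes. Cells that passed more than 1 gate, and fibroblast-like cells (46 and 5), entered no comparison. Gate thresholds were set after the hormone and marker counts had been seen.

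Counts were summed per class and divided by the total. Log2 ratios have exact conditional binomial intervals, shares Clopper-Pearson intervals and levels Poisson intervals. Simulated data with known folds were used to check the ratio script. With 1 library per group no test was run. All 10 members were named, together with genes of the lists past 1.5-fold in beta-like cells and the 5 genes most like Npas4 and Fos. Members and lists were chosen with earlier results of these data known. Alternatives were TMM scaling (edgeR 4.0.16), median-of-ratios factors, equal weight per cell, thinning (to 3500 UMIs in beta-like cells and 1500 in other classes), no cell filter, doublets kept, gates halved or doubled, and a 5% mitochondrial limit. Genes were located with GENCODE M21 and promoters with RefSeq.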

Additional observations from a re-analysis of the deposited data

Results flagged for a closer look

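For 17 values the multipara over virgin log2 ratio of a member had a counting interval on the other side of 0 from that in beta-like cells. The share of all genes with such opposite intervals was not measured, so the count of 17 is not a result about the members. The separation is beyond counting error only, and since each group is 1 library no difference between animals was tested. Npas4 was at -0.22 in alpha-like cells (-0.19, -0.48 to 0.10, when thinned to 3500 UMIs) against 0.61 in beta-like cells. Dusp1 was at -0.075 (0.066, -0.15 to 0.28, when thinned to 1500 UMIs) against 0.22 in the same classes. Fos, at -0.10 in beta-like cells, was at 0.45 in delta-like, 0.29 in Ppy-high, 0.42 in pericyte-like and 0.13 in macrophage-like cells. Macrophage-like Fos was at 0.088 (-0.19 to 0.37) in cells thinned to 1500 UMIs. Ppy-high Fos was at 0.51 (0.14 to 0.88) at that depth and at 0.23 (-0.017 to 0.49) at 3500 UMIs. Junb, at -0.059 in beta-like cells, was at 0.42 in delta-like and 0.36 in macrophage-like cells, and Egr1, at -0.11, was at 0.22 and 0.33 in the same classes. Thinned macrophage-like cells gave 0.13 (-0.11 to 0.37) for Junb and 0.36 (-0.034 to 0.76) for Egr1. Under TMM scaling the beta-like values of Fos, Junb and Egr1 were -0.00028, 0.040 and -0.013. Nr4a1 was at -0.69 in macrophage-like cells (0.041 in thinned cells) against 0.23 in beta-like cells. Jun, at 0.36 in beta-like cells, was at -0.16 in endothelial-like, -0.98 in T cell-like and -1.56 in B cell-like cells, the last 2 moving to -0.056 under a 5% mitochondrial limit and to -0.19 in thinned cells. Zfp36, at 0.59 in beta-like cells, was at -1.39 in T cell-like cells on 47 and 7 UMIs and at -0.86 in B cell-like cells on 156 and 14 UMIs. Dusp1 was at -0.62 in T cell-like cells. In thinned T cell-like cells the intervals of Jun, Zfp36 and Dusp1 all held 0.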

How the results depend on the processing

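In beta-like cells the Npas4 log2 ratio stayed between 0.58 and 0.71 over 10 alternatives and was 0.71 under TMM scaling and 0.71 under median-of-ratios factors. Both scalings moved the median of all genes from -0.10 to -0.0028 and -0.0032, so ratios shift upward together. The median of the other 9 members was 0.29 under TMM scaling, 0.29 under median-of-ratios factors and 0.23 with mitochondrial share under 5%. The count of members at least 1.5-fold higher was 1 with each cell weighted equally, with thinned cells, with no cell filter, with mitochondrial share under 5%, and in cells of 20000 to 40000 UMIs, the last chosen after seeing the data. Under TMM scaling and median-of-ratios factors Junb turned to 0.040 and 0.040 in beta-like cells, and in alpha-like cells Fos to 0.051 and 0.045, Junb to 0.029 and 0.023 and Dusp1 to 0.020 and 0.014. In cells thinned to 3500 UMIs (beta-like) or 1500 UMIs (other classes) Junb turned to 0.018 in beta-like and 0.12 in Ppy-high cells, Fosb to -0.011 and Dusp1 to 0.066 in alpha-like cells, Zfp36 to -0.072 in endothelial-like cells, and Nr4a1 to 0.041 and Ier2 to -0.082 in macrophage-like cells. With each cell weighted equally Fosb turned to -0.014 in alpha-like cells. Apart from the scalings, the cause was not tested. All 10 ratios in delta-like cells kept their sign under the 9 alternatives run there. The limit of 5% mitochondrial UMIs gave no value for B cell-like cells. No paired analysis was possible because each group has 1 library. Outside the endocrine classes, with fibroblast-like cells left out, Npas4 rests on 1 to 7 UMIs per class.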
